A study of Mus musculus with 32 samples.

Results

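The 10 genes described here encode enzymes of gluconeogenesis and components of the insulin and FoxO pathway, and were chosen by name from the 20076 genes of the count table: Pck1, G6pc, Fbp1, Slc37a4, Insr, Irs1, Irs2, Foxo1, Foxo3 and Igfbp1. Their levels were followed in the liver of male mice on a C57BL/6J background, either littermate wild-type (WT) or Acadm-knockout (MCAD-KO, below KO), the latter lacking the medium-chain acyl-CoA dehydrogenase of fatty acid oxidation in all tissues. Mice received a low-fat (LF) or a high-fat (HF) diet for 6 weeks and were then fasted for 16 h or left on the diet for the same time (fed), which gives 8 groups of 4 mice. All groups share the semi-synthetic diets and the strain, and the labelled ages run from 7.5 to 16 with no unit. Of the 32 mice, 2 were left out: KO HF fasted replicate 4, whose RNA carries heart markers, and WT LF fed replicate 2, which stood apart from its group. The remaining 30 mice leave 3 in each of these groups and 4 in the other 6.

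Gluconeogenesis makes glucose from lactate, amino acids and glycerol, and the liver runs it during fasting. Insulin acts through its receptor, the receptor substrates Irs1 and Irs2 and the kinase Akt, which moves the transcription factors Foxo1 and Foxo3 out of the nucleus. When insulin is low, FoxO factors in the nucleus, together with glucagon and glucocorticoid signals, raise the transcription of genes such as Pck1, G6pc, Irs2 and Igfbp1.

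On GRCm38 the genes lie, by the GENCODE vM21 annotation, as Pck1 at chr2:173153048-173159273, G6pc at chr11:101367561-101377903, Fbp1 at chr13:62864753-62888282, Slc37a4 at chr9:44396852-44402968, Insr at chr8:3122061-3279617, Irs1 at chr1:82233101-82291416, Irs2 at chr8:10984681-11008458, Foxo1 at chr3:52268336-52353221, Foxo3 at chr10:42181841-42276755 and Igfbp1 at chr11:7197782-7202546.

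RefSeq promoter windows on GRCm38.p6 were available for 9 of the 10 genes, with 3 alternative starts for Slc37a4. The 250 bases before each start were searched on both strands for a forkhead element (GTAAACA or TGTTTAC), for the core of the insulin response element (CAAAACA or TGTTTTG) and for the part ACGTCA or TGACGT of the cyclic AMP response element. These letters, which do not overlap each other in any window printed here, were chosen with the promoter sequences in view. Of 32851 windows of the same length from all genes, 3.17% held the first, 5.56% the second and 6.47% the third. The windows of 4 genes that were higher in fasted mice are shown together with that of G6pc, a gene of the same pathway that did not pass the test and was added after its values had been seen. Capitals mark the matches, and each sequence ends at the base before the RefSeq start. For genes such as Irs2 and G6pc this start differs from the GENCODE position given above, and all distances are from the RefSeq start.

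Pck1 (chr2:173152823-173153072, plus strand): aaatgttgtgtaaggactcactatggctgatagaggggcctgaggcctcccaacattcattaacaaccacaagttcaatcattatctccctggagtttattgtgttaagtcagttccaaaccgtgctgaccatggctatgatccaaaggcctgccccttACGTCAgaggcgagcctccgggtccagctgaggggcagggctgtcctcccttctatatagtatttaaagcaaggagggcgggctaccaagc

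Slc37a4, first start (chr9:44396696-44396945, plus strand): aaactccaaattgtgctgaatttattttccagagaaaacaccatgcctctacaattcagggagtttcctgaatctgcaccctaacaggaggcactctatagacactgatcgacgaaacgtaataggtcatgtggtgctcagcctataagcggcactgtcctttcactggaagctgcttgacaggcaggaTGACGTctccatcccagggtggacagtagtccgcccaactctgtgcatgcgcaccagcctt

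Irs2 (chr8:11008930-11009179, minus strand): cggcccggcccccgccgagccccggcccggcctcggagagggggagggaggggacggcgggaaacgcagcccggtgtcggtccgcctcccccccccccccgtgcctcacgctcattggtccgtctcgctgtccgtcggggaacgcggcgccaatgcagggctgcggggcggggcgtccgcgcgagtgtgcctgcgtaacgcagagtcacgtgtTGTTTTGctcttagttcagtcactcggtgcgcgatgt

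Igfbp1 (chr11:7197537-7197786, plus strand): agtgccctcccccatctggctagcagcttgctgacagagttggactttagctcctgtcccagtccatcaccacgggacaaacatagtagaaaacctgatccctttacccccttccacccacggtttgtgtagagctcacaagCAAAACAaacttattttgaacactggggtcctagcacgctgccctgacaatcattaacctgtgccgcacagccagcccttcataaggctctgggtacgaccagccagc

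G6pc (chr11:101367466-101367715, plus strand): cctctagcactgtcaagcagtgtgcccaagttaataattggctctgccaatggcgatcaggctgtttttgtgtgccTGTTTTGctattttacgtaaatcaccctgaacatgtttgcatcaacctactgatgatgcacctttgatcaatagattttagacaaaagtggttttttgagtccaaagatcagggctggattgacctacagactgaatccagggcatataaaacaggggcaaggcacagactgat

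The part of the cyclic AMP response element lay 91 to 86 bases before the Pck1 start and 61 to 56 bases before the first Slc37a4 start. The insulin response core lay 108 to 102 bases before the Igfbp1 start, 37 to 31 before the Irs2 start and 174 to 168 before the G6pc start. Irs1 held the core at 111 to 105 and at 32 to 26 bases. The window of the second Slc37a4 start overlaps the first window. Its match, at 214 to 209 bases, is the same stretch of the genome and not a further element. None of the 3 motifs was found in the windows of Fbp1, Foxo1 and Foxo3 or before the third Slc37a4 start, and the forkhead letters were in none of the 11 windows. A match describes the letters of the window only, and no binding was measured.

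Each read came from the 3′ end of a polyadenylated transcript, and levels are given as CPM, a count scaled to the total of reads counted on genes, with library sizes scaled by TMM. Totals ranged from 2031053 to 4292200 counts per mouse. Acadm was 189.8 to 748 CPM in the 15 WT mice and 8.98 to 37.1 CPM in the 15 KO mice, so that every library carried the genotype of its label. The summed hepatocyte markers (10 of 10 in the table) lay between 41716 and 73076 CPM in the 30 mice. Heart markers reached 78.5 CPM at most. Summed acinar pancreas markers were 16502 CPM in WT HF fasted replicate 2 and 2402 CPM in KO HF fed replicate 1, against 52.7 CPM or less elsewhere. The adrenal enzymes Cyp11a1, Cyp11b1 and Hsd3b1 together gave 96.8 and 34.7 CPM in KO LF fasted replicates 3 and 4, 20.4 CPM in KO HF fed replicate 1 and 17.6 CPM in WT HF fasted replicate 3, with at most 0.555 CPM in the other mice. Results are therefore also given without these 5 mice where the values change. Adipose markers (9 of 10 in the table) summed to 22.9 to 188 CPM in fed and 42.5 to 367 CPM in fasted mice. Among them Cidec reached at most 10.9 CPM in fed and 177 CPM in fasted mice. Fabp4 reached at most 115 and 122 CPM, and Adipoq 4.22 and 8.68 CPM, respectively. The part of adipose RNA in the fasting results was not tested. Of the 30 mice, 16 were sequenced on lane 7 and 14 on lane 8, with all WT LF fed mice on lane 8. In liver pieces a change in the share of hepatocytes and a change in RNA per hepatocyte cannot be told apart.

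**Figure D1:**
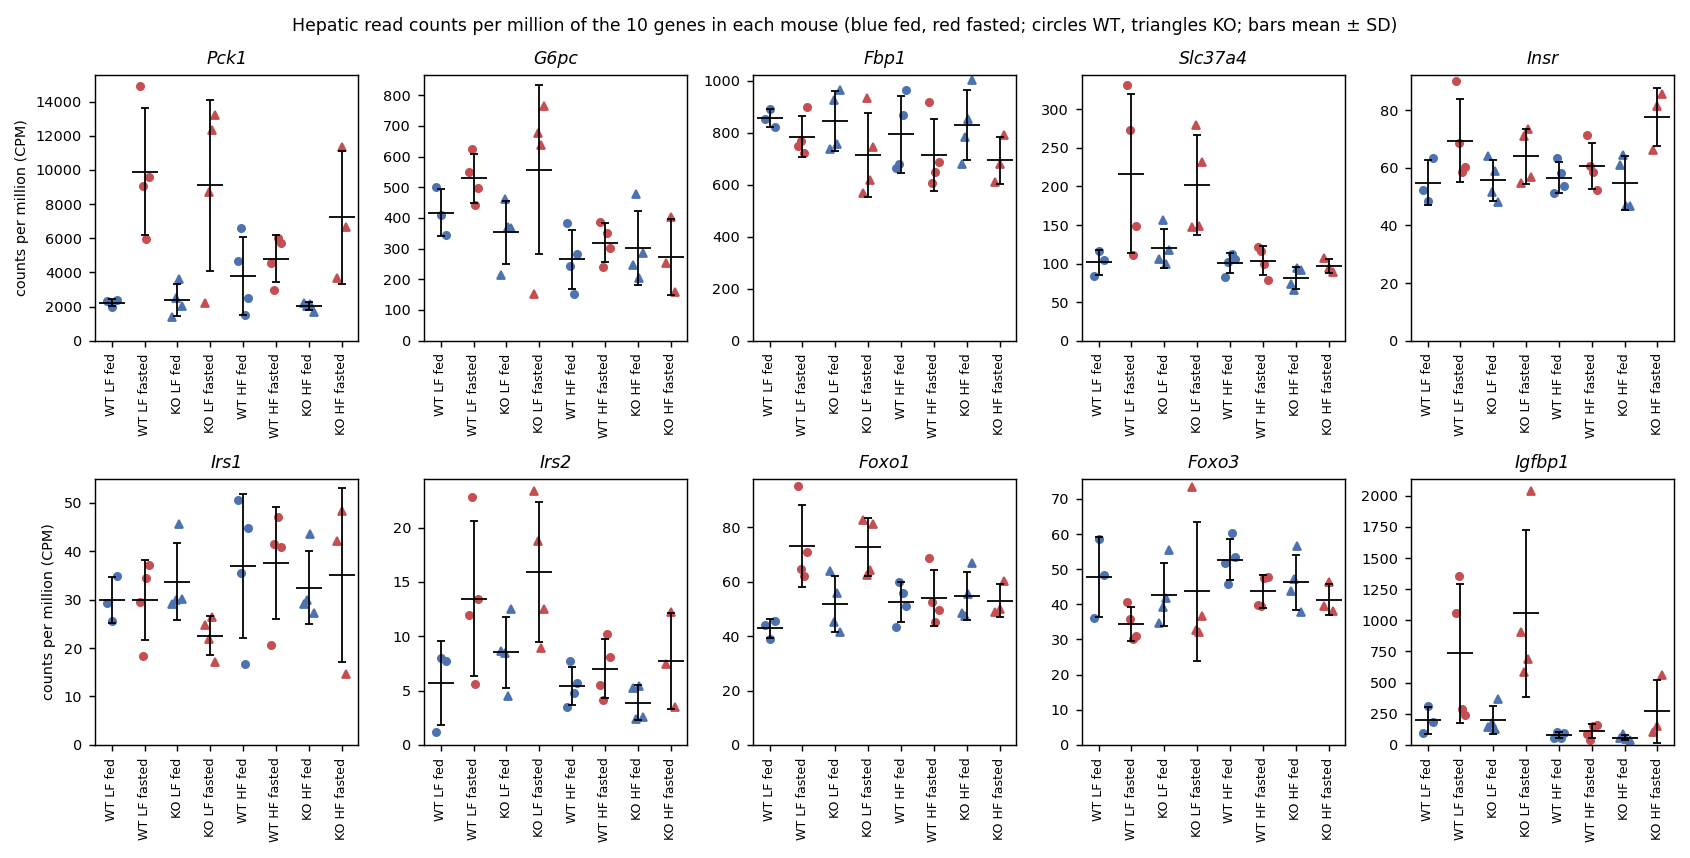
Each panel plots one gene in CPM (linear axis from 0) against the 8 groups, with 1 point per mouse (blue fed, red fasted; circles WT, triangles KO) and bars for mean ± SD. The 2 LF fasted groups had the highest means for Pck1, G6pc, Slc37a4, Irs2, Foxo1 and Igfbp1. Fed and fasted mice overlapped for Fbp1 in all 4 combinations of genotype and diet.

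The first comparison asked which genes differed between fasted and fed livers over all 4 combinations of genotype and diet. Of the 10 genes, 6 were higher in fasted mice (Pck1, Slc37a4, Insr, Irs2, Foxo1 and Igfbp1) and none was lower, at an adjusted p below 0.05 (edgeR quasi-likelihood F test, p-values adjusted by Benjamini and Hochberg's method over 11566 genes). Among all genes tested, 18.9% were called in this comparison and 9.77% were called higher. The median log2 fold change of the 10 genes was 0.30, against -0.0022 over all genes. Leaving out 1 mouse at a time, all 6 passed in 30 of 30 fits. G6pc, Fbp1, Irs1 and Foxo3 did not pass.

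Pck1 encodes cytosolic phosphoenolpyruvate carboxykinase, which commits oxaloacetate to glucose synthesis. In WT LF mice its levels were 2324, 1979 and 2388 CPM fed and 14915, 9087, 5956 and 9575 CPM fasted, and in KO LF mice 1391, 2498, 3623 and 2002 CPM fed and 2194, 8701, 12365 and 13199 CPM fasted. Every fasted WT LF mouse lay above every fed one, whereas KO LF fasted replicate 1, at 2194 CPM, stayed within the fed range. On HF, WT mice had 4671, 6600.1, 1483 and 2492 CPM fed and 4525, 2977, 6021 and 5704 CPM fasted, and KO mice had 2219.9, 2056, 2150.3 and 1659.9 CPM fed and 3643, 11364 and 6669.9 CPM fasted. The fed WT HF mice spread widely and overlapped the fasted ones, and the KO HF groups did not overlap. Over all groups Pck1 was 2.96-fold higher in fasted mice (log2 fold change 1.56 ± 0.25, SE, edgeR adjusted p = 5.38e-05).

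The second HF fed WT mouse had both the highest Pck1 level of the 15 fed mice, 6600.1 CPM, and the lowest level of Fasn among them, 129 CPM. Fasn encodes fatty acid synthase, which insulin induces, and its range in the 15 fasted mice was 54.8 to 257 CPM. The part of this difference in the Pck1 level was not tested.

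Glucose-6-phosphatase, the last enzyme of the pathway, consists of the catalytic subunit G6pc and the glucose-6-phosphate transporter Slc37a4, which feeds it. G6pc ranged from 151 to 499.7 with a median of 345 CPM in fed mice and from 152 to 764 with a median of 404 CPM in fasted mice. The ranges overlapped, and the difference did not pass (log2 fold change 0.28 ± 0.20, edgeR adjusted p = 0.387). KO LF fasted replicate 1, the mouse with the low Pck1 value, had 152 CPM of G6pc where the other 3 mice of its group had 676, 639 and 764 CPM.

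Slc37a4 levels in LF mice were 84.4, 117 and 104 CPM in WT fed, 332, 273, 112 and 149 CPM in WT fasted, 106, 156, 98.9 and 117 CPM in KO fed and 148, 279.9, 149 and 231 CPM in KO fasted mice. Of the 8 fasted LF mice, 4 lay above the highest of the 7 fed LF mice. On HF the fed mice ranged from 65.5 to 113 with a median of 92.8 CPM and the fasted mice from 78.99 to 121 with a median of 99.9 CPM, with wide overlap. Averaged over the 4 combinations Slc37a4 was 1.45-fold higher in fasted mice (log2 fold change 0.54 ± 0.13, edgeR adjusted p = 0.0021).

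Fbp1, the fructose-1,6-bisphosphatase of the pathway, ranged from 664 to 1002 with a median of 852 CPM in fed mice and from 567 to 933 with a median of 723 CPM in fasted mice, with a log2 fold change of -0.19 ± 0.09 that did not pass (edgeR adjusted p = 0.124). Without KO LF fasted replicate 2 it passed as lower (-0.23, adjusted p = 0.046). Its spread within groups, an SD of 0.23 on the log2 scale, was smaller than that of Pck1 (0.71), G6pc (0.59) and Igfbp1 (0.88).

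The insulin receptor gene Insr ranged from 46.8 to 64.3 with a median of 53.7 CPM in fed mice and from 52.4 to 90.1 with a median of 66.3 CPM in fasted mice. The ranges overlapped, and the difference was 1.22-fold (log2 fold change 0.29 ± 0.09, edgeR adjusted p = 0.0147). In KO HF mice alone the fasted values (66.3, 81.4 and 85.5 CPM) lay above all fed values (61.1, 64.3, 46.9 and 46.8 CPM). The difference in that pair did not pass (edgeR adjusted p = 0.295). Irs2, the receptor substrate whose transcription FoxO factors raise, was counted with few reads, 5 to 73 per mouse. It ranged from 1.202 to 12.5 with a median of 5.41 CPM in fed mice and from 3.52 to 23.4 with a median of 10.2 CPM in fasted mice. Averaged over the 4 combinations of genotype and diet, Irs2 was 1.84-fold higher in fasted mice (log2 fold change 0.88 ± 0.24, edgeR adjusted p = 0.00699). Irs1, the other main substrate, ranged from 16.7 to 50.5 with a median of 29.9 CPM in fed and from 14.6 to 48.3 with a median of 29.4 CPM in fasted mice and did not pass (log2 fold change -0.11 ± 0.16, edgeR adjusted p = 0.706). In the KO LF groups the 4 fasted values of Irs1 (24.7, 21.9, 26.4 and 17.2 CPM) lay below all 4 fed values (29.2, 29.9, 45.7 and 30.04 CPM), with an edgeR adjusted p of 0.254 for that pair. In WT LF, WT HF and KO HF mice the fed and fasted values of Irs1 overlapped. The share of all genes without overlap in such a pair is not given here, for Irs1 or any other member. Irs1 and Irs2 overlap genes on the opposite strand that are also in the table (Gm9747 and 9530052E02Rik), and whether reads were counted by strand is not given in the sources used here.

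Foxo1, the main FoxO factor of hepatic glucose production, was 44.2, 38.9 and 45.5 CPM in WT LF fed and 94.99, 64.6, 62.1 and 70.9 CPM in WT LF fasted mice, without overlap. KO LF mice had 64.1, 45.1, 55.97 and 41.6 CPM fed and 82.5, 62.6, 64.4 and 81.3 CPM fasted. On HF the fed mice ranged from 43.2 to 66.7 with a median of 53.4 CPM and the fasted mice from 45.2 to 68.5 with a median of 50.04 CPM. The mean effect was 1.24-fold (log2 fold change 0.31 ± 0.09, edgeR adjusted p = 0.0114). Foxo3 ranged from 34.6 to 60.2 with a median of 47.1 CPM in fed and from 30.2 to 73.2 with a median of 39.5 CPM in fasted mice, with a log2 fold change of -0.22 ± 0.11 that did not pass (edgeR adjusted p = 0.171). The highest Foxo3 value belonged to KO LF fasted replicate 1, and without this mouse the log2 fold change was -0.31 with an adjusted p of 0.011.

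Igfbp1 encodes a secreted IGF-binding protein that insulin represses in the liver. WT LF mice had 94.2, 313 and 186 CPM fed and 1062, 1352, 288 and 242 CPM fasted, and KO LF mice had 143, 174, 126 and 366 CPM fed and 905, 589, 691 and 2035 CPM fasted. The KO LF groups did not overlap, whereas 2 of the 4 WT LF fasted mice stayed within the fed range. WT HF mice had 58.7, 107, 58.4 and 94.6 CPM fed and 89.5, 37.99, 149.9 and 159.5 CPM fasted, and KO HF mice had 58.3, 85.1, 47.5 and 38.8 CPM fed and 100.5, 149 and 558 CPM fasted. Over all groups the gene was 3.35-fold higher in fasted mice (log2 fold change 1.74 ± 0.33, edgeR adjusted p = 0.000402).

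The lane labels were examined within this result. Each lane was fitted alone with additive terms for genotype, diet and feeding, unlike the model of 8 groups above. In the 16 mice of lane 7 none of the 10 genes passed, and in the 14 mice of lane 8 only Pck1 did. The share of all genes called within a lane is not given here. All 6 genes called over the 30 mice had a positive log2 fold change in both lanes: on lanes 7 and 8, respectively, 1.34 and 1.80 for Pck1, 1.14 and 1.87 for Igfbp1, 0.79 and 0.66 for Irs2, 0.48 and 0.35 for Slc37a4, 0.21 and 0.35 for Foxo1, and 0.26 and 0.26 for Insr. With lane as a term in the fit over all 30 mice, 6 genes were called, and without the 5 mice that carried pancreas or adrenal RNA, 6 as well. With all 32 mice Slc37a4 no longer passed (edgeR adjusted p = 0.132) and 5 genes were called.

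The effect of fasting was then taken separately in each genotype and diet. In WT LF mice 3 of the 10 genes were higher after fasting, against 7.54% of all genes called. These were Pck1 (log2 fold change 2.15 ± 0.54, edgeR adjusted p = 0.0144), Slc37a4 (1.09 ± 0.27, adjusted p = 0.00751) and Foxo1 (0.77 ± 0.19, adjusted p = 0.00728). In KO LF mice 3 were higher, against 13.8% of all genes called, namely Pck1 (1.94 ± 0.48, adjusted p = 0.00808), Slc37a4 (0.76 ± 0.24, adjusted p = 0.0316) and Igfbp1 (2.38 ± 0.64, adjusted p = 0.0136). In WT HF mice edgeR called 0 of the 10, with 0.424% of all genes called. No member had an unadjusted p below 0.05 there, beside 1063 of all 11566 genes tested, and DESeq2 and limma voom called 0. In KO HF mice edgeR also called 0, with 0.527% of all genes called. There 3 of the 10 had an unadjusted p below 0.05, beside 871 of all 11566 genes tested. DESeq2 called 2, Pck1 and Igfbp1, while limma voom called 0, with no share of all genes given here for either.

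Of the 6 calls in LF mice, that of Pck1 in KO LF mice passed in 30 of 30 fits without 1 mouse, and the other 5 were lost in 1 to 5 of them. Without WT LF fed replicate 1, 3 or 4 the adjusted p of Pck1 in WT LF mice was 0.0562, 0.0792 and 0.0586. Without WT LF fasted replicate 1, Pck1 alone was called, as Slc37a4 had an adjusted p of 0.0519 and Foxo1 of 0.0534. Slc37a4 also fell out without WT LF fed replicate 1 (0.0643), and Foxo1 without WT LF fed replicate 3 (0.0631). In KO LF mice the call of Igfbp1 was lost without KO LF fasted replicate 4 (adjusted p = 0.064), and that of Slc37a4 without KO LF fasted replicate 2 or 4 or without KO LF fed replicate 1, 3 or 4 (adjusted p from 0.0693 to 0.138). Without KO LF fasted replicate 1, G6pc passed in KO LF mice, with a log2 fold change of 0.97 (adjusted p = 0.045), and Pck1 passed in KO HF mice (1.84, adjusted p = 0.0458). Foxo1 passed in KO LF mice in 4 of 30 fits, those without WT LF fasted replicate 1, KO LF fed replicate 1 or KO LF fasted replicate 2 or 3. KO LF fasted replicates 3 and 4 are among the mice with adrenal RNA, and without the 5 mice named above 0 genes were called in KO LF mice, where 2 fasted mice then remained, with log2 fold changes of 1.19 for Pck1, 0.84 for Slc37a4 and 1.88 for Igfbp1. The part of this RNA in the result was not tested. The set of all 32 mice includes the library with heart markers. With all 32 mice the 3 calls in KO LF mice were lost (adjusted p = 0.0814 for Pck1, 0.366 for Slc37a4 and 0.0893 for Igfbp1). In WT LF mice Foxo1 alone still passed (adjusted p = 0.00459), with 0.0901 for Pck1 and 0.0879 for Slc37a4.

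**Figure D2:**
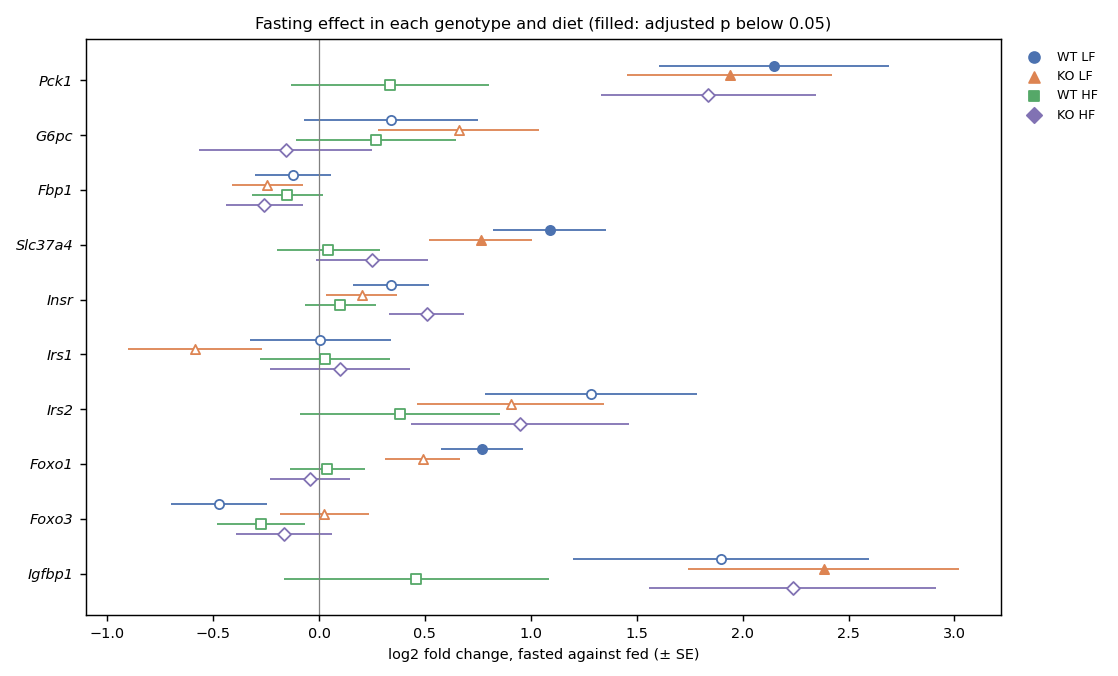
Log2 fold changes of fasted against fed mice (x axis, ± SE) for the 10 genes in each combination of genotype and diet, with filled symbols where the adjusted p was below 0.05. The filled symbols belong to the LF groups, 3 genes in WT and 3 in KO, and the WT HF symbols lie between -0.27 and 0.46.

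Whether fasting acted differently on the diets was tested by the difference of the fasting effects, HF minus LF. EdgeR called 0 of the 10 genes, with 2.46% of all genes called. Of the 10, 2 had an unadjusted p below 0.05, beside 1533 of all 11566 genes tested. The 2 genes were Foxo1 (difference of log2 fold changes -0.63 ± 0.18, adjusted p = 0.0554) and Slc37a4 (-0.78 ± 0.25, adjusted p = 0.107). DESeq2 called Foxo1 (adjusted p = 0.0301), limma voom called 0, and with age as a term edgeR called Slc37a4 (adjusted p = 0.0416). The share of all genes called in these 3 settings is not given here. For Pck1 the difference was -0.96 ± 0.49 (adjusted p = 0.415) and for Igfbp1 -0.79 ± 0.65 (adjusted p = 0.681). Leaving out 1 mouse at a time, Foxo1 passed in 6 of 30 fits and Slc37a4 in 1, the one without WT LF fasted replicate 3 (adjusted p = 0.0209). The 6 mice whose absence brought Foxo1 past the threshold were WT HF fed replicate 1, WT HF fasted replicate 1, WT LF fasted replicate 3, KO LF fed replicate 1 and KO LF fasted replicates 2 and 3, with adjusted p from 0.0277 to 0.0476.

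Diet was compared next, as HF against LF over both genotypes and feeding states. Of the 10 genes, 2 were lower on HF and none higher, against 3.49% of all genes called and 1.24% called lower. Igfbp1 ranged from 94.2 to 2035 with a median of 313 CPM in the 15 LF mice and from 37.99 to 558 with a median of 89.5 CPM in the 15 HF mice, 3.90-fold lower on HF (log2 fold change -1.96 ± 0.33, edgeR adjusted p = 0.00124). Slc37a4 ranged from 84.4 to 332 with a median of 148 CPM on LF and from 65.5 to 121 with a median of 94.01 CPM on HF, 1.59-fold lower on HF (-0.67 ± 0.13, adjusted p = 0.00162). G6pc (-0.66 ± 0.20, adjusted p = 0.0649) and Irs2 (-0.78 ± 0.24, adjusted p = 0.0628) missed the threshold, and DESeq2 called both (adjusted p = 0.0212 and 0.0315). The share of all genes that DESeq2 called is not given here. The lanes were again fitted alone with additive terms. Within lane 7 Igfbp1 had a log2 fold change of -2.56 (adjusted p = 0.0207) and Slc37a4 of -1.05 (0.00692), and within lane 8 of -1.67 (0.273) and -0.46 (0.18), where no member passed. With all 32 mice the adjusted p of Slc37a4 was 0.136.

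In fasted mice alone 3 genes were lower on HF, against 6.65% of all genes called and 2.9% called lower. Slc37a4 was 112 to 332 CPM in the 8 fasted LF mice and 78.99 to 121 CPM in the 7 fasted HF mice. All but 1 of the LF mice lay above the highest HF mouse, and the level on HF was 2.09-fold lower (log2 fold change -1.06 ± 0.18, edgeR adjusted p = 0.000247). Igfbp1 was 242 to 2035 CPM on LF and 37.99 to 558 CPM on HF, with 6 of 8 LF mice above all HF mice, and 5.13-fold lower on HF (-2.36 ± 0.48, adjusted p = 0.00356). Foxo1 was 62.1 to 94.99 CPM on LF and 45.2 to 68.5 CPM on HF, 1.36-fold lower (-0.44 ± 0.13, adjusted p = 0.0294). G6pc showed 152 to 764 CPM on LF and 158 to 404 CPM on HF. The G6pc difference did not pass (-0.88 ± 0.28, adjusted p = 0.0629), and the 1 LF mouse below all HF mice was KO LF fasted replicate 1. Without this mouse it passed (-1.04, adjusted p = 0.00556), as it did without KO HF fasted replicate 2 (-1.08, adjusted p = 0.0355). Irs2 likewise did not pass (-0.996 ± 0.33, adjusted p = 0.0614), but passed in 5 of 30 fits without 1 mouse.

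The Foxo1 call in fasted mice was lost in 7 of 30 fits without 1 mouse, those without KO HF fasted replicate 1 or 2, WT LF fasted replicate 1, WT HF fasted replicate 2, 3 or 4, or KO LF fasted replicate 4 (adjusted p from 0.0515 to 0.0921). Slc37a4 and Igfbp1 passed in all 30. Without the 5 mice with pancreas or adrenal RNA only Slc37a4 passed, with a log2 fold change of -1.13 (adjusted p = 0.00636), while Igfbp1 had -2.02 (0.0619) and Foxo1 -0.38 (0.22).

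In fed mice alone edgeR called 0 of the 10 genes between diets, with 0.268% of all genes called. Of the 10, only Igfbp1 had an unadjusted p below 0.05, beside 1070 of all 11566 genes tested. DESeq2 called Igfbp1 (adjusted p = 0.0454) and limma voom did not, with no share of all genes given here for either. The Igfbp1 level was 94.2 to 366 CPM in the 7 fed LF mice and 38.8 to 107 CPM in the 8 fed HF mice, with 6 of 7 LF mice above all HF mice (log2 fold change -1.57 ± 0.46, edgeR adjusted p = 0.212). Pck1 was 1391 to 3623 CPM in fed LF and 1483 to 6600.1 CPM in fed HF mice (0.27 ± 0.35, adjusted p = 0.915).

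**Figure D3:**
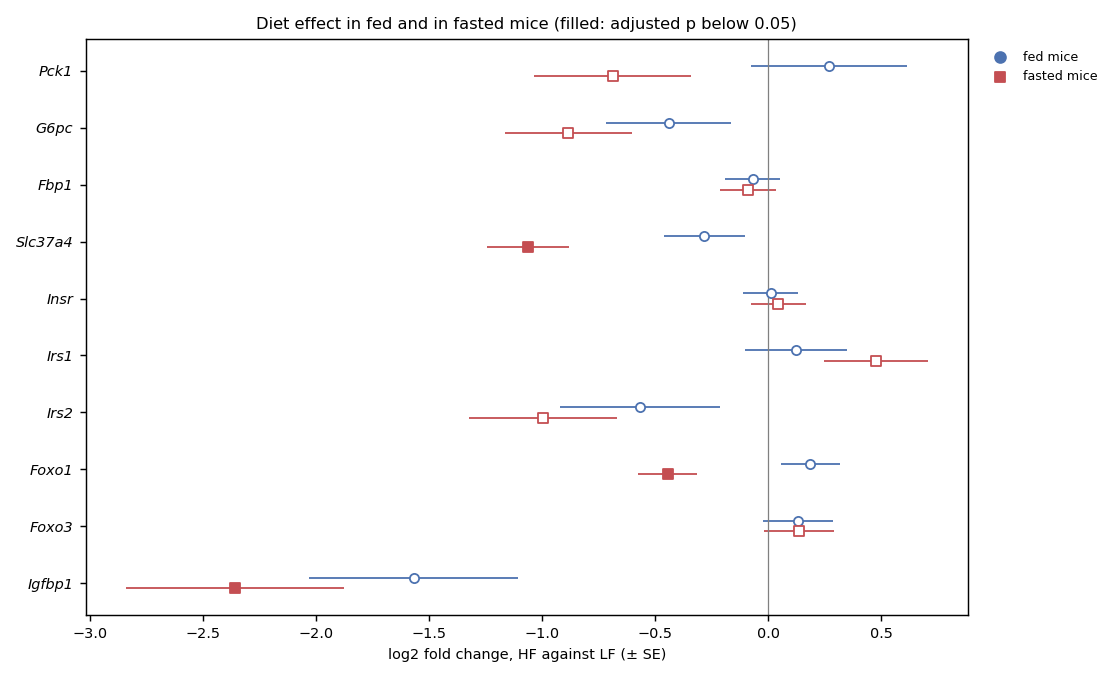
Log2 fold changes of HF against LF (x axis, ± SE) for the 10 genes in fed and in fasted mice, with filled symbols where the adjusted p was below 0.05. The 3 filled symbols are those of Slc37a4, Foxo1 and Igfbp1 in fasted mice.

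The question that gave rise to the series is how KO and WT livers differ. Over all conditions edgeR called 0 of the 10 genes between genotypes, with 0.00865% of all genes called. The log2 fold changes ran from -0.13 (Irs1) to 0.35 (Igfbp1), the latter with an SE of 0.32, and no member had an unadjusted p below 0.05. EdgeR also called 0 members in each single condition, where 0.0193% of all genes were called in LF fed, 0.0104% in LF fasted, 0.00998% in HF fed and 0.0096% in HF fasted mice, and no member had an unadjusted p below 0.05 in any of the 4. DESeq2 and limma voom called 0 members in these 5 comparisons as well.

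The widest KO to WT difference was that of Igfbp1 in HF fasted mice, 100.5, 149 and 558 CPM in KO and 89.5, 37.99, 149.9 and 159.5 CPM in WT mice (log2 fold change 1.30 ± 0.79, edgeR adjusted p = 0.996). A single KO mouse lay above the WT range, with 558 CPM. In the opposite direction Pck1 in HF fed mice was 2219.9, 2056, 2150.3 and 1659.9 CPM in KO and 4671, 6600.1, 1483 and 2492 CPM in WT mice (-0.91 ± 0.45, adjusted p = 0.999), with 3 WT mice above and 1 below the KO range. Over the 4 conditions the standard errors of the KO to WT differences ran from 0.11 log2 units (Fbp1, LF fed) to 0.79 (Igfbp1, HF fasted). Neither the difference of the fasting effects between genotypes nor that of the diet effects was called for any member, as edgeR called 0% of all genes in either, with 0 members at an unadjusted p below 0.05 and 0 called by DESeq2 or limma voom.

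**Figure D4:**
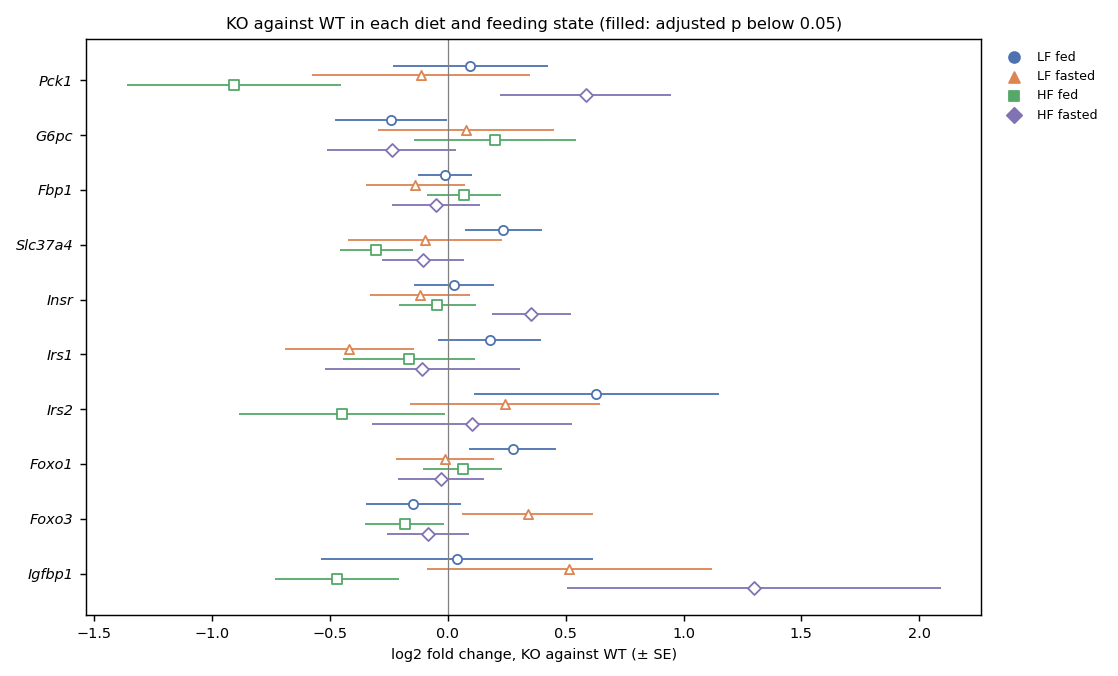
Log2 fold changes of KO against WT (x axis, ± SE) for the 10 genes in the 4 combinations of diet and feeding state, with filled symbols reserved for an adjusted p below 0.05. All symbols are open, and they lie between -0.91 (Pck1, HF fed) and 1.30 (Igfbp1, HF fasted).

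Other genes of the pathway were followed through 6 lists of 79 genes in all. Of the gluconeogenic enzymes outside the 10 genes, 13 of 15 were tested on fasting, 2 were higher, 1 was lower and 10 did not pass, beside 18.9% of all genes called on fasting and 9.77% called higher. The median log2 fold change was 0.07, against -0.0022 over all genes. Pcx, the pyruvate carboxylase that supplies oxaloacetate, was among the higher ones (0.51 ± 0.11, adjusted p = 0.000398), and the enolase gene Eno1 was lower (-0.54 ± 0.16, adjusted p = 0.011). Of the abundant genes that did not pass, the cytosolic aspartate aminotransferase Got1 had 0.36 ± 0.23 and the malate dehydrogenase Mdh1 -0.13 ± 0.08. In fasted mice 3 of these 13 enzymes were lower on HF, beside 2.9% of all genes, among them Got1 (-1.86 ± 0.33, adjusted p = 0.000982) and Mdh2 (-0.52 ± 0.11, adjusted p = 0.00218). For Got1 the difference of the fasting effects between diets passed as well (-1.75 ± 0.46, adjusted p = 0.0392). Got1 was 188 to 1326 CPM in fasted LF and 131 to 286 CPM in fasted HF mice.

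Among 13 regulators of gluconeogenic transcription, 3 were higher and 3 lower after fasting, beside the 18.9% of all genes called and 9.77% called higher, with a median of 0.15. Creb3l3, a membrane-bound factor of the fasted liver, was higher (0.82 ± 0.09, adjusted p = 8.93e-09). The forkhead factor Foxa2 (-0.91 ± 0.11, adjusted p = 4.22e-08), the glucocorticoid receptor gene Nr3c1 (-0.42 ± 0.09, adjusted p = 0.00058) and the repressor gene Nr0b2 (-0.94 ± 0.22, adjusted p = 0.00241) were lower. The other 2 that were higher were Hnf4a and Cebpb. Cebpa (-0.24 ± 0.09) and Klf15 (0.31 ± 0.12) did not pass. Ppargc1a, a coactivator of gluconeogenic genes, was lower on HF in fasted mice (-0.84 ± 0.21, adjusted p = 0.0127), while Foxa2 (0.61 ± 0.16) and Nr3c1 (0.55 ± 0.13) were higher. The fasting effects on Nr0b2 (1.71 ± 0.43, adjusted p = 0.0299) and Nr3c1 (0.73 ± 0.18, adjusted p = 0.0183) differed between diets.

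Of 21 tested genes of the insulin signalling chain (22 listed), 2 were higher and 4 lower after fasting, beside 18.9% of all genes called and 9.77% called higher, with a median of -0.06. Mtor, the growth kinase, was higher (0.73 ± 0.13, adjusted p = 2.55e-05), and its upstream inhibitor gene Tsc1 (-0.41 ± 0.11), the phosphoinositide kinase subunit Pik3r1 (-0.35 ± 0.10) and Foxo4 (-0.54 ± 0.16) were lower, with adjusted p of 0.00676, 0.00817 and 0.0156. The other higher gene was Trib3 and the other lower gene Grb10, while Trib1 (0.28 ± 0.13) did not pass. Of the IGF binding proteins other than Igfbp1, 5 of 6 were tested and 2 were higher, beside 9.77% of all genes, namely Igfbp2 (0.98 ± 0.16, adjusted p = 4.87e-05) and Igfbp4 (0.43 ± 0.09, adjusted p = 0.000179). Igfbp3 (0.04 ± 0.20) and Igfbp7 (-0.18 ± 0.12) did not pass. Igfbp2 was lower on HF over all mice (-0.61 ± 0.16, adjusted p = 0.0322).

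Of 13 other FoxO targets, 1 was higher and 3 were lower after fasting, beside 18.9% of all genes called and 9.77% called higher, with a median of -0.24. Mttp, the lipid transfer protein of VLDL assembly, was higher (0.47 ± 0.08, adjusted p = 4.43e-05) and in fasted mice lower on HF (-0.41 ± 0.12, adjusted p = 0.0265). The stress gene Gadd45a (-1.20 ± 0.35, adjusted p = 0.0128), the sestrin gene Sesn3 (-0.79 ± 0.23, adjusted p = 0.00923) and Cited2 (-0.54 ± 0.14, adjusted p = 0.00542) were lower, and Apoc3 (0.03 ± 0.08) and Cat (0.08 ± 0.07) did not pass. Genes that insulin induces in the liver were lower in 10 of 10 cases, beside 18.9% of all genes called in either direction, with a median of -2.45. Examples are Acly, which makes cytosolic acetyl-CoA (-2.78 ± 0.22, adjusted p = 1.02e-09), Srebf1, the lipogenic transcription factor (-2.40 ± 0.22, adjusted p = 1.61e-08), the pyruvate kinase gene Pklr (-2.36 ± 0.23, adjusted p = 3.42e-08) and Fasn (-3.28 ± 0.31, adjusted p = 4.22e-08). In this list 9 of 10 genes were called in WT LF, 8 in KO LF, 3 in WT HF and 3 in KO HF mice, where 7.54%, 13.8%, 0.424% and 0.527% of all genes were called, respectively.

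**Figure D5:**
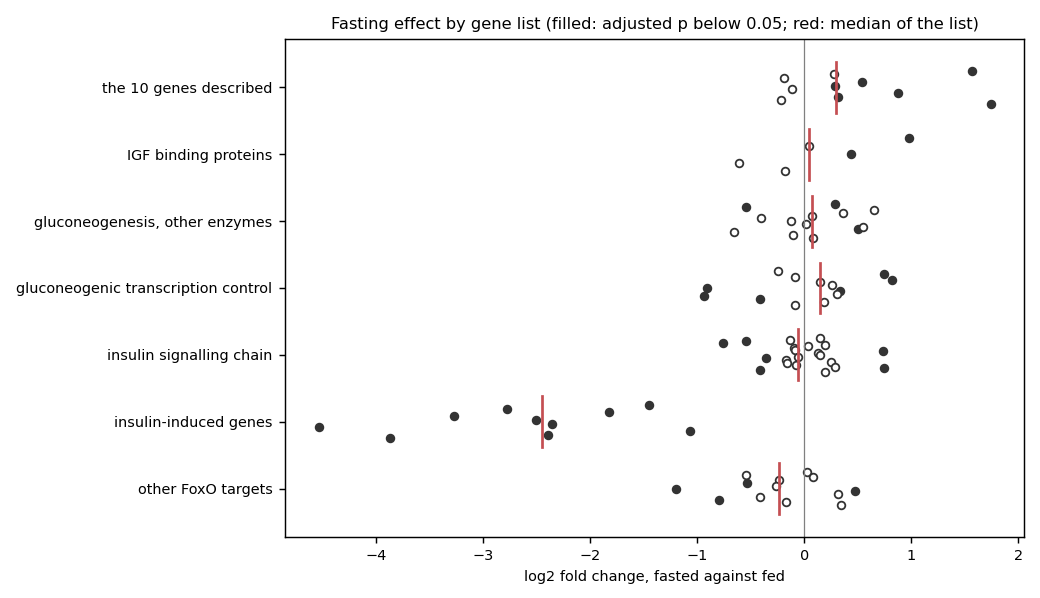
Log2 fold changes of fasted against fed mice (x axis) for the 10 genes described and for the 6 lists, with 1 point per gene tested, filled where the adjusted p was below 0.05, and a red line at each median. The insulin-induced genes lie apart on the negative side with a median of -2.45, while the medians of the other 5 lists lie between -0.24 and 0.15.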

How the data were processed

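From liver RNA the authors made QuantSeq 3′ mRNA libraries, mapped single reads to GRCm38 with HISAT 0.1.5, sorted them with SAMtools 1.2 and counted reads per gene with HTSeq 0.6.1p1 in union mode. The deposited values are whole-number counts of 20076 Ensembl genes in 32 mice, with no normalization. Symbols and positions came from GENCODE vM21, and promoter sequences from RefSeq.

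Counts were tested with edgeR 4.0.16 in R 4.3.3 (TMM, filterByExpr, robust quasi-likelihood fit, Benjamini-Hochberg adjustment over all genes tested, calls below 0.05). One model of 8 groups over 30 mice gave all comparisons except KO to WT within a condition, which used the 7 or 8 mice of that condition. The procedure was tested on simulated counts. DESeq2 1.42.0 and limma 3.58.1 voom, other size factors and filters, a replicate block, lane and age terms, each lane alone, and the omission of each mouse were alternatives. Within each lane alone, the mean effects of fasting, diet and genotype came from additive terms for genotype, diet and feeding. Removal of the 5 mice with pancreas or adrenal markers was chosen after seeing the data. Replicate numbers did not pair mice: residuals of 98 same-number pairs correlated with a median r of 0.01.

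The 10 genes and the lists were chosen with earlier results of these data known. Named from each list were up to 4 genes called on fasting with the smallest p and up to 2 of the most abundant that were not called. The others were named after their values had been seen. For each of the 10 genes called on fasting, the 2 genes with the most similar group means (at least 5 CPM, Pearson r of log2 values with 1 CPM added) were listed. Some genes that these rules name are not reported here. Depth limits rarely counted genes such as Irs2.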

Additional observations from a re-analysis of the deposited data

Results flagged for a closer look

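In groups of 4 mice, the distance of the highest or lowest mouse from the next one was compared with the range of the group (Dixon's 95% limit). Of 60 groups tested over the 10 genes, 3 passed it, and chance alone gives about 5%. Irs1 was 45.7 CPM in KO LF fed replicate 3, where the other mice of the group had 29.2 to 30.04 CPM. In KO HF fed replicate 3 it was 43.6 CPM, against 27.2 to 29.9 CPM. Foxo3 was 73.2 CPM in KO LF fasted replicate 1, against 32.2 to 36.8 CPM, and this mouse also had the lowest Pck1 and G6pc values of its group. The 2 mice left out were examined with library sizes scaled over all 32 mice. In WT LF fed replicate 2, Pck1 stood at 2805 CPM and Igfbp1 at 750.3 CPM, both above the group (Igfbp1 at most 315 CPM), and the mouse was below the group for 6 of the 10 genes, with G6pc at 193 CPM and Slc37a4 at 32.2 CPM. KO HF fasted replicate 4, the library with heart markers at 36616 CPM and hepatocyte markers at 812 CPM, had 54.4 CPM of Irs1, 67.5 CPM of Foxo1 and 101 CPM of Foxo3, above its group, and 117 CPM of Pck1, 4.48 CPM of G6pc and 1.60 CPM of Igfbp1, below it.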

How the results depend on the processing

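Of the 10 genes, 6 were called on fasting, but 0 in lane 7 and 1 in lane 8 alone, which hold fewer mice and were fitted with additive terms. Fasting in WT LF mice went from 3 to 1 with all 32 mice and to 1 in lane 8. Fasting in KO LF mice went from 3 to 0 with all 32 mice, to 1 in lane 7 and to 0 without the 5 mice with pancreas or adrenal RNA. DESeq2 called 2 in KO HF mice, 4 for diet, 1 for diet in fed mice, 5 for diet in fasted mice and 1 for the fasting by diet difference, where edgeR called 0, 2, 0, 3 and 0. The shares of all genes called that are given above belong to the main edgeR fits. None is given for DESeq2 or the other settings, so these counts cannot be set against all genes. Diet went to 1 with all 32 mice and to 0 in lane 8, diet in fasted mice to 1 without the 5 mice, and the fasting by diet difference to 1 with age as a term. With all 32 mice the called genes of the lists fell from 3 to 1 for other gluconeogenic enzymes, from 6 to 3 for the insulin signalling chain, from 2 to 1 for IGF binding proteins and from 4 to 2 for other FoxO targets. Leaving out 1 mouse at a time gave 6 to 7 genes for fasting, 1 to 3 in WT LF, 1 to 4 in KO LF, 0 to 1 in KO HF, 2 to 4 for diet, 2 to 4 for diet in fasted mice and 0 to 2 for the fasting by diet difference. Effects that did not pass changed sign as follows. In lane 7 these were Irs1 on fasting (0.0372), Pck1 (-0.17), Irs2 (-0.12) and Igfbp1 (-0.21) on fasting in WT HF, Foxo1 on fasting in KO HF (0.0372), and Igfbp1 (-0.34) and Irs1 (0.17) between genotypes. Slc37a4 on fasting in WT HF became -0.0904 with age as a term and -0.017 without the 5 mice, and with all 32 mice Slc37a4 (-0.13) and Foxo1 (0.0494) changed sign in KO HF. Without 1 mouse, the effect in WT HF ran from -0.0408 to 0.15 for Slc37a4 and from -0.10 to 0.12 for Foxo1, and in KO HF from -0.56 to 0.15 for G6pc and from -0.14 to 0.0688 for Foxo1. The cause of these changes was not tested. A replicate block left the fasting count at 6 and changed no count of called genes by over 1.5 times, with a log2 fold change of 1.55 for Pck1. The replicate numbers did not pair mice (98 pairs, lowest r -0.204).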

Other observations

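The genes whose profiles were closest to those of the 6 genes higher after fasting were looked up by Pearson r of log2 values over the 8 group means among 9191 genes. Closest to Pck1 were Abhd2 (r = 0.993) and Alpl, the tissue-nonspecific alkaline phosphatase (0.990). For Slc37a4 the closest was Slc45a3 (0.990). The closest were for Insr Gmps (0.964) and Ccdc47 (0.959), for Irs2 Nrbp2 (0.977) and Cdhr5 (0.972), and for Foxo1 Trappc13 (0.983) and Bbip1 (0.975). Igfbp1 was closest to Gm9843 (0.981), a predicted gene. The 8 points come from the same 30 libraries, so these values are a description. Among the 10 genes themselves, Slc37a4 ran closest to Irs2 (0.938) and Igfbp1 (0.921), and Irs2 to Igfbp1 (0.915), while Pck1 and G6pc had an r of 0.41.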
